A study of Mus musculus with 8 samples.

Results

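The genes described here are 5 secreted fibroblast growth factors (FGFs), Fgf3, Fgf4, Fgf8, Fgf15 and Fgf17, and the 4 FGF receptor tyrosine kinases, Fgfr1, Fgfr2, Fgfr3 and Fgfr4. They were taken by gene symbol and chosen with earlier results of these data known. All 9 were found among the 21069 features listed at day 5 and the 19011 genes of the day 0 table. Their gene identifiers in the files are 14174 (Fgf3), 14175 (Fgf4), 14179 (Fgf8), 14170 (Fgf15), 14171 (Fgf17), 14182 (Fgfr1), 14183 (Fgfr2), 14184 (Fgfr3) and 14186 (Fgfr4). RNA was sequenced from 8 cultures of 46C, a mouse embryonic stem cell line of C57BL/6 strain per the labels, in which green fluorescent protein reports Sox1, a gene of early neural cells. The 4 lines were wild type (WT), LincNDIME_KO (here KO), shCtrl and shMef2c. From their names and the study's title these are an unmodified line, a knockout of the long noncoding RNA NDIME, a control hairpin and a hairpin against the transcription factor gene Mef2c. At day 0 each was a stem cell culture on irradiated mouse embryonic fibroblasts in medium with fetal bovine serum and leukemia inhibitory factor (LIF). At day 5 each was labelled as neural progenitor cells derived from it, after aggregation without attachment in G-MEM with knockout serum replacement. There was 1 library per line and day, so no difference below has a replicate check, and the labels do not say whether the KO or hairpin lines are single clones.

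Most FGFs are secreted proteins that bind a receptor together with heparan sulfate, a sugar chain on cell surface proteoglycans. The bound receptor signals through adaptor proteins and the MAP kinase cascade, which switches on ETS-family transcription factors and, with them, inhibitors that damp the same signal. In embryonic stem cells FGF4 is the main FGF made by the cells themselves, and it drives them out of the naive state. FGF8 and FGF17 are made in the primitive streak and later by the midbrain-hindbrain organizer, FGF15 and FGF3 are made in the early neural tube, and FGFR3 is found in neural progenitors.

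Estimated reads assigned to genes numbered 25996204 to 26834802 per library at day 5 and 20312032 to 20883674 at day 0. Mef2c was listed at 0.45 FPKM (fragments per kilobase of transcript, scaled to library depth) in WT, 0.10 in KO, 0.50 in shCtrl and 0.12 in shMef2c at day 5. At day 0 it was not lower with the hairpin, at 0.37 RPKM (reads per kilobase, scaled likewise) in the library labelled shMef2c and 0.16 in shCtrl, from 44 and 20 reads. Every day 0 direction for that library is therefore given for the library labelled shMef2c. At day 5 the summed level of 9 neural progenitor markers was 702 FPKM in WT and 747 in shCtrl but 270 in KO and 235 in shMef2c. That of 9 naive pluripotency markers ran the other way, at 134, 104, 356 and 453.5. Of the neural progenitor markers, Vim was at 290 FPKM in WT, 267 in shCtrl, 75.6 in KO and 81.1 in shMef2c. Fabp7 was at 174, 233, 29.95 and 11.6 in the same order, and these genes made up most of the WT and shCtrl sums. Sox2 was the only 1 of the 9 not lower in either modified line against its own control, at 98.4, 103, 104 and 118 FPKM. Other lists were summed in the order WT, KO, shCtrl and shMef2c. Markers of the epiblast transition were at 133, 186, 133 and 180.5 FPKM and of forebrain at 9.47, 31.9, 22.1 and 3.26. Neuron markers were at 216, 210, 340 and 60.1. Of these, 2 of 8 were past 2-fold lower in KO (3.26% of all genes), and Tubb3 alone was at 109 in WT and 148 in KO. Primitive blood markers were at 5.68, 4.77, 35.6 and 1.33, and feeder fibroblast markers at 18.2, 17.9, 25.3 and 19.55. The cultures labelled as neural progenitors thus held different amounts of marker RNA, and in bulk RNA fewer cells of a type cannot be told apart from less RNA per cell.

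Only Fgf4 and Fgfr3 lay past 2-fold in both modified lines against their own control at day 5, so the bases just upstream of their start sites are printed. RefSeq's GRCm38.p6 promoter table matched 5 of the 9 members. Shown 5′ to 3′ on the gene's strand are the 250 bases before the start of Fgf4 (chr7:144861136-144861385, plus strand) and of Fgfr3, which has 2 listed starts (chr5:33721474-33721723 and chr5:33722056-33722305, plus strand). Capitals mark GGGCGG, the core of an Sp1 box, and CCAAT, on either strand.
Fgf4: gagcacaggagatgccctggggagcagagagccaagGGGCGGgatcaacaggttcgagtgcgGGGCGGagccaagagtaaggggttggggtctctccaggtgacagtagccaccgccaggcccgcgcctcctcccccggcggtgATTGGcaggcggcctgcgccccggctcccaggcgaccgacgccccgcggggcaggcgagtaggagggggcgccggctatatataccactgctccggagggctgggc
Fgfr3, the first start: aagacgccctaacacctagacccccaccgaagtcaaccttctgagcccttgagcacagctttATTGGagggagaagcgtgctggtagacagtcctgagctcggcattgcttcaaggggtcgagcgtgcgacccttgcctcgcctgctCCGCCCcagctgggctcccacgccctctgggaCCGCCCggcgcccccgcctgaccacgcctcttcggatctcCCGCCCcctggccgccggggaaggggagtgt
Fgfr3, the second start: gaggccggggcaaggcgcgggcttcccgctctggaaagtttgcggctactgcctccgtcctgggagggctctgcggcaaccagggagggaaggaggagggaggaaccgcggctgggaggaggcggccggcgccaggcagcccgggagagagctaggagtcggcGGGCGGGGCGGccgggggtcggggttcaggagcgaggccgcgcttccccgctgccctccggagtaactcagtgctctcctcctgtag
The Fgf4 window held 2 matches to GGGCGG and 1 to CCAAT, and 71.2% of its bases were G or C. The first Fgfr3 window held 3 and 1 (66.8% G or C), and the second held 2 overlapping matches to GGGCGG and none to CCAAT (72.8%). Over 32851 promoter windows of the same length, 32.7% held GGGCGG and 33.8% held CCAAT, and the median G or C content was 52.4%. None of the 3 windows had a match on either strand to TATAAA, to the octamer ATGCAAAT, to the RBPJ site TGGGAA, to the LEF/TCF site CTTTGAT or to the MEF2 site. These were found in 12.4%, 1.60%, 21.6%, 3.21% and 2.92% of all windows. A match is a string of letters, not a bound site. For the TATA box only the exact string TATAAA was searched, and the Fgf4 window holds the run tatata near its 3′ end. The MEF2 pattern searched ends in A or G, and the Fgf4 stretch ctatatatac departs from it only in its last base. Near matches were not counted over all windows.

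The ligand made by stem cells was higher in both modified lines at day 5. Fgf4 stood at 5.87 FPKM in WT, 16 in KO, 5.59 in shCtrl and 14.7 in shMef2c. Its 2 control levels differed by less than their counting error, and both modified lines lay above both controls. The share of reads from Fgf4 was 2.73 times as large in KO as in WT (exact 95% interval 2.45 to 3.04, counting error only) and 2.62 times as large in shMef2c as in shCtrl (2.34 to 2.93). On the log2 scale of level + 1 these were differences of 1.31 and 1.25. Of the naive pluripotency markers that go with the stem cell state, 7 of 9 were past 2-fold higher in KO (4.05% of all genes). In shMef2c 9 of 9 were (4.49% of all genes), and none of these markers was listed at 0. Their part in the Fgf4 difference was not tested.

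Fgf8 and Fgf17, close relatives that share expression domains in the embryo, were highest in the shMef2c library. Fgf8 was at 11.6 FPKM in WT, 7.89 in KO, 6.73 in shCtrl and 32.6 in shMef2c, a ratio of read shares of 4.80 to shCtrl (4.10 to 5.64). Fgf17 was scarcer, at 1.67, 1.16, 0.62 and 6.13 FPKM, and its ratio to shCtrl was 9.77 (6.52 to 15.2), from 260 and 26 reads. The log2 differences were 2.12 and 2.14 against shCtrl and 1.42 for each against WT, since both controls were unlike: shCtrl had 0.579 times the Fgf8 read share of WT (0.482 to 0.694) and 0.378 times that of Fgf17 (0.231 to 0.60). In KO, Fgf8 was at 0.664 times the WT read share (0.558 to 0.789) but did not differ from shCtrl beyond counting error, and the interval for Fgf17 against WT included 1 (0.476 to 1.02). Against shCtrl, Fgf17 in KO was higher, with a ratio of 1.85 (1.13 to 3.10). Primitive streak and tail bud markers, the tissue where both genes are first made, had a summed level of 63.0 FPKM in WT, 7.78 in KO, 50.7 in shCtrl and 194 in shMef2c. Of the 8 of 10 that passed the level minimum in shMef2c against shCtrl, 8 were past 2-fold higher (4.49% of all genes), with T at 106 against 36.6 FPKM. Cdx1, Cdx4 and Mixl1 (0.28, 0.10 and 0.61 FPKM in shCtrl) passed only through their shMef2c level, so their calls were nearly fixed by passing. In KO against WT 4 of the 5 that passed were past 2-fold lower (3.26% of all genes) and 0 were above 0. Of these, T, Cdx2 and Nkx1-2 were below 1 FPKM in KO and passed only through WT. The 8 markers of the midbrain-hindbrain boundary, where both genes are made later, summed to 26.6, 30.3, 24.8 and 19.3 FPKM, and Gbx2 was the most abundant of them in each library, at 10.7, 19.8, 8.18 and 12.1 FPKM. In shMef2c against shCtrl 1 of the 5 that passed was above 0. There 1 was past 2-fold lower (4.78% of all genes), Wnt1, at 0.05 against 3.28 FPKM. In KO against WT 1 of 6 was past 2-fold lower (3.26% of all genes), En2, at 1.49 against 7.07 FPKM. In that comparison 2 of 6 were above 0, Wnt1, at 3.13 against 1.10 FPKM, and Gbx2. The part of either list in the result was not tested.

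Fgf15, a ligand of the neural tube and, as a hormone, of the gut, was the most abundant of the 5 ligands in WT, KO and shCtrl. Its levels were 42.95 FPKM in WT, 38.4 in KO, 29.4 in shCtrl and 9.36 in shMef2c, so the shMef2c library was lowest. The ratio of read shares to shCtrl was 0.317 (0.284 to 0.354) and the log2 difference -1.55. In KO the ratio to WT was 0.893 (0.837 to 0.952), and KO lay above shCtrl. Fgf3, the fifth ligand, was at 3.46, 1.41, 2.06 and 1.52 FPKM, highest in WT. Against WT its read share in KO was 0.405 (0.276 to 0.585), but on the log2 scale of level + 1 it did not reach 2-fold (-0.89). Against shCtrl that value was -0.34, since WT was above shCtrl by a ratio of 1.67 (1.20 to 2.33), and the interval of shMef2c against shCtrl included 1 (0.491 to 1.10).

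Among the receptors, Fgfr1, the main FGF receptor of stem and early neural cells, hardly differed at day 5. It was at 30.4 FPKM in WT, 25.3 in KO, 31.4 in shCtrl and 28.6 in shMef2c. In each library Fgfr1 was above 84.2% to 87.3% of the 21069 features listed at day 5, whether detected there or not. Ratios of read shares were 0.831 (0.794 to 0.871) in KO and 0.909 (0.870 to 0.951) in shMef2c, outside counting error, and its span over the 4 libraries, 1.24-fold, was the narrowest of the 9 members. Fgfr2, whose splice forms serve epithelial and mesenchymal cells, was at 6.98, 8.54, 10.6 and 7.5 FPKM. It differed by a ratio of 1.51 (1.38 to 1.64) between the 2 controls, more than in either modified line against its own control.

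Fgfr3 had the widest span of the 9 members at day 5, 18.8-fold. It was at 10.4 FPKM in WT, 3.54 in KO, 9.83 in shCtrl and 0.55 in shMef2c, and the 2 controls differed by less than counting error. The read share in KO was 0.34 times that of WT (0.302 to 0.382), and in shMef2c 0.0553 times that of shCtrl (0.0419 to 0.0717), from 60 and 1060 reads. The log2 differences were -1.32 and -2.80. KO and shMef2c themselves were apart, with a ratio of 6.43 (4.89 to 8.59). Neural progenitor markers were lower in the same libraries: 4 of 9 were past 2-fold lower in KO (3.26% of all genes) and 8 of 9 in shMef2c (4.78%). None of these markers was at 0, and their part in the result was not tested. Fgfr4, a receptor of endoderm and liver, was scarce at 0.40, 1.17, 0.50 and 0.62 FPKM, and its pair mean was under 1 in each comparison at day 5. By reads it was 2.92 times as large a share in KO as in WT (1.94 to 4.47). Visceral endoderm markers summed to 46.3 FPKM in WT, 128 in KO, 108 in shCtrl and 62.2 in shMef2c. In KO against WT 7 of 10 were past 2-fold higher (4.05% of all genes) and 1 lower (3.26%). Afp was at 23.3 FPKM in KO and 0.13 to 0.36 in the others, while Foxa2, also a gene of other endoderm and of the floor plate, was at 30.4 in WT, 6.45 in KO, 37.4 in shCtrl and 30.55 in shMef2c and made up most of the WT sum. Their part in the Fgfr4 value was not tested.

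**Figure D1:**
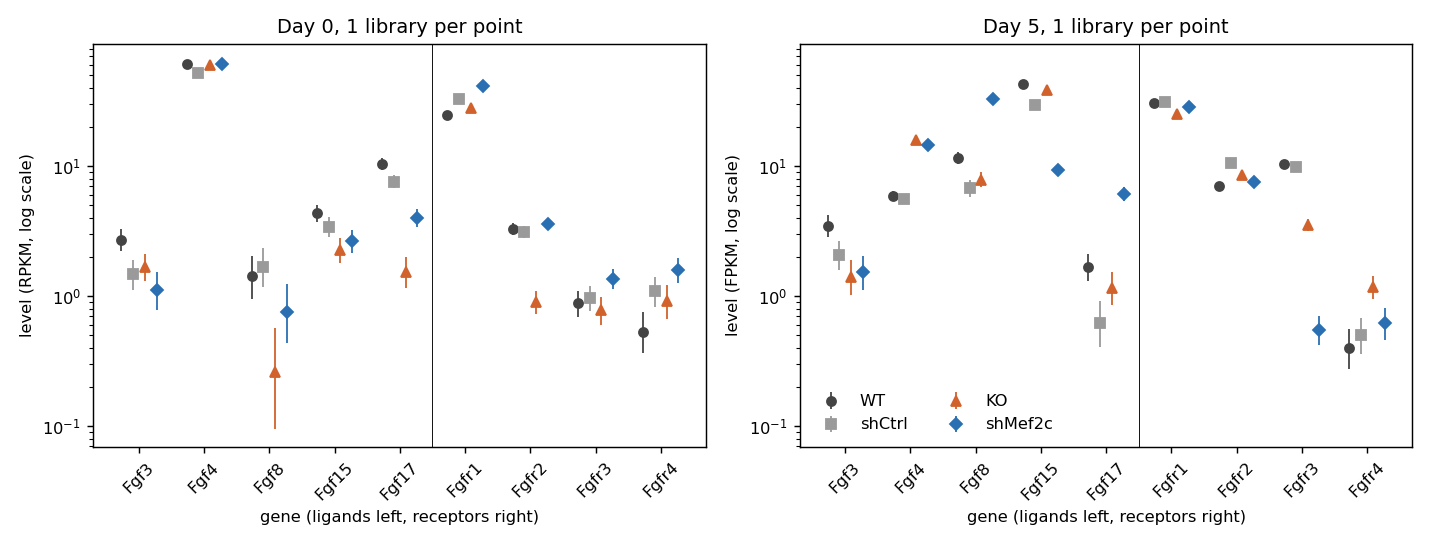
Level of each member in each library, on a log axis, at day 0 (left, RPKM) and day 5 (right, FPKM). Each point is 1 library, bars are exact 95% Poisson intervals of its reads scaled to the level, and at day 5 Fgfr3 stands at 10.4 in WT and 9.83 in shCtrl, above 3.54 in KO and 0.55 in shMef2c.

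Counted over the members, 2 of the 8 that passed the level minimum were past 2-fold in KO against WT at day 5 (Fgf4 higher, Fgfr3 lower), against 7.31% of all 12832 genes tested (4.05% higher, 3.26% lower). In shMef2c against shCtrl, 5 of 8 were past 2-fold, against 9.26% of 13041 genes (4.49% higher, 4.78% lower). Of those 5, Fgf4, Fgf8 and Fgf17 were higher, and Fgf15 and Fgfr3 lower. Members were chosen with earlier results of these data known, so a count above these shares is a description, not independent support. In shCtrl against WT 0 of 8 were past 2-fold, where 0.996% of 12845 genes were. Fgf17 (-0.72) and Fgf8 (-0.71) came closest. The medians over the members that passed were -0.28, -0.21 and -0.30 in these comparisons, beside 0.0011, -0.05 and 0.02 over all genes, and members on both sides of 0 made up each. With the other control library in place of the own one the counts were again 2 for KO (10.2% of all genes past 2-fold) and 5 for shMef2c (7.21%). The authors' deposited table of KO against WT, which holds 2253 genes (10.7% of the day 5 features), listed 4 members, Fgfr4 (log2 1.55), Fgf4 (1.45), Fgf3 (-1.30) and Fgfr3 (-1.55). The authors' deposited table of shMef2c against shCtrl, with 2758 genes (13.1%), listed 5, Fgf17 (3.31), Fgf8 (2.28), Fgf4 (1.39), Fgf15 (-1.65) and Fgfr3 (-4.16).

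**Figure D2:**
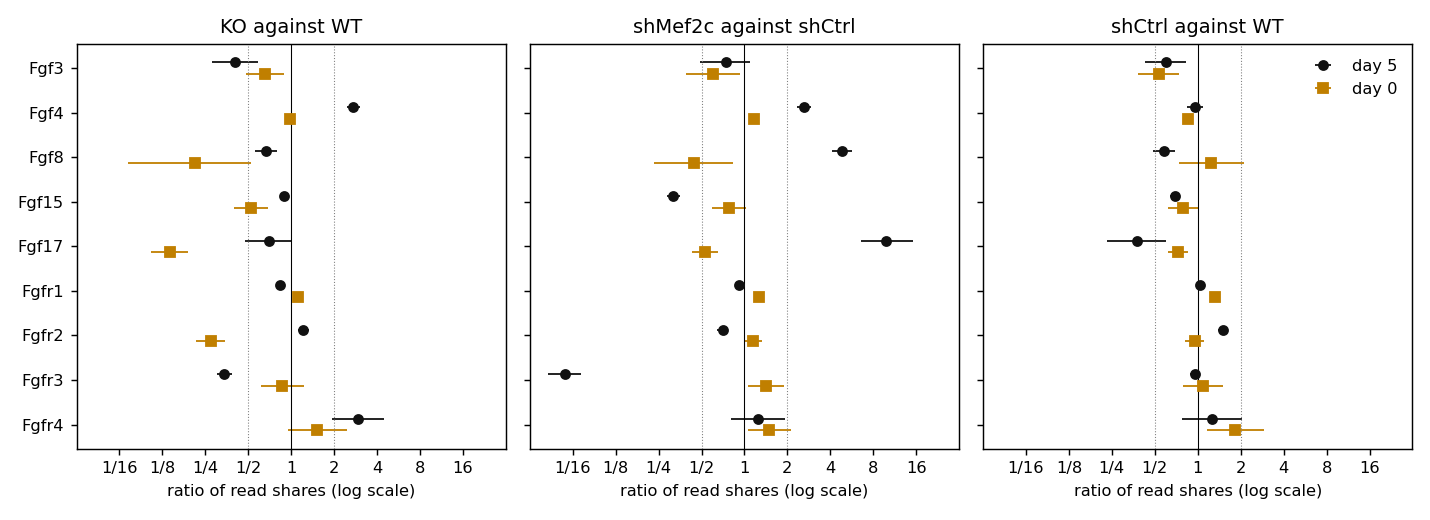
Ratio of read shares for each member in the 3 comparisons within a day, on a log axis, with exact 95% intervals that cover counting error only (black circles day 5, yellow squares day 0, dotted lines 2-fold). In the middle panel Fgf17 (9.77) and Fgf8 (4.80) lie to the right and Fgfr3 (0.0553) to the left at day 5, while their day 0 ratios lie between 0.446 and 1.41.

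Since FPKM is per length, levels of different genes can be set beside each other within a library. The summed level of the 5 ligands was close in WT, KO and shMef2c (65.6, 64.85 and 64.3 FPKM) and lower in shCtrl (44.4), but its make-up differed. Fgf15 made up 65.5% of it in WT, 66.2% in shCtrl and 59.2% in KO, and 14.6% in shMef2c. There Fgf8 was the leading ligand with 50.8%, against 17.7% in WT, 15.1% in shCtrl and 12.2% in KO. Fgf4 held 24.7% in KO and 22.8% in shMef2c, against 8.95% in WT and 12.6% in shCtrl. Fgf5, a ligand outside this sum, was at 8.72 FPKM in WT, 15.4 in KO, 7.95 in shCtrl and 20.2 in shMef2c. The ligand sums and shares therefore cover the 5 members only, not all FGF ligands. The 4 receptors summed to 48.1 FPKM in WT, 52.3 in shCtrl, 38.5 in KO and 37.2 in shMef2c. Fgfr1 was the leading receptor in all 4 libraries, with 60.1% to 76.7%. Fgfr3 held 21.5% in WT and 18.8% in shCtrl, 9.19% in KO and 1.48% in shMef2c.

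**Figure D3:**
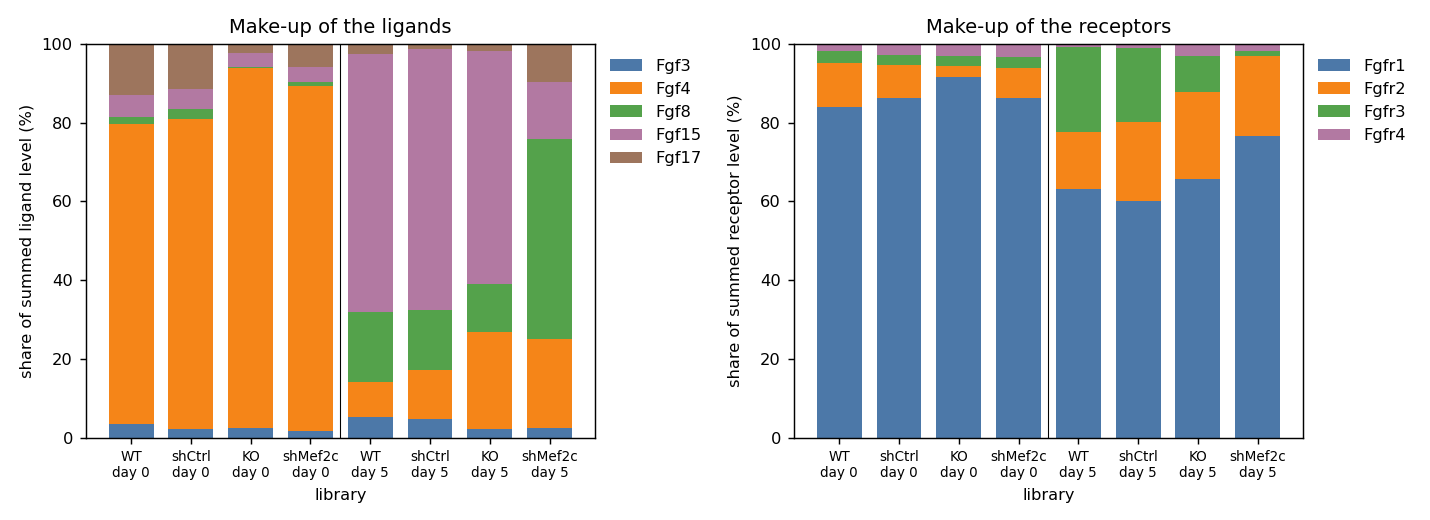
Share of each ligand (left) and each receptor (right) in the summed level of its group, in percent, for the 8 libraries (1 bar each, RPKM at day 0, FPKM at day 5). Fgf4 fills 76.3% to 91.3% of the ligand bars at day 0, Fgf15 leads in 3 of the 4 day 5 bars, and Fgf8 leads with 50.8% in shMef2c.

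At day 0 the ligands were mostly Fgf4. It stood at 60.9 RPKM in WT, 60.0 in KO, 52.3 in shCtrl and 61 in the library labelled shMef2c, or 76.3%, 91.3%, 78.7% and 87.7% of the summed ligand level. Fgf15 was at 4.33, 2.27, 3.42 and 2.65 RPKM and Fgf3 at 2.72, 1.67, 1.47 and 1.11. Fgf8 was at 1.42, 0.26, 1.68 and 0.76 RPKM from 29, 6, 36 and 16 reads, so KO was lowest and shCtrl highest. Its read share in KO was 0.213 times that of WT (0.0722 to 0.521) and in the library labelled shMef2c 0.446 times that of shCtrl (0.231 to 0.824). Sorted by level, no adjacent pair of libraries differed beyond counting error. Fgf17 varied most clearly among the ligands, at 10.4 RPKM in WT, 1.54 in KO, 7.60 in shCtrl and 4.00 in the library labelled shMef2c. Each step in this order exceeded counting error. The KO read share of Fgf17 was 0.141 times that of WT (0.104 to 0.188).

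Fgfr1 was at 24.5 RPKM in WT, 27.9 in KO, 32.6 in shCtrl and 41.1 in the library labelled shMef2c at day 0, and each step exceeded counting error. The 11 markers of feeder fibroblasts, which express Fgfr1, summed to 237, 221, 242 and 399 RPKM in the same libraries, with none at 0, and their part was not tested. Fgfr2 was at 3.26 RPKM in WT, 0.90 in KO, 3.10 in shCtrl and 3.60 in the library labelled shMef2c. KO stood alone there, with 0.275 times the read share of WT (0.216 to 0.346), while the other 3 did not differ beyond counting error. Fgfr3 (0.78 to 1.36 RPKM) and Fgfr4 (0.53 to 1.59) were scarce in all 4 libraries. In KO against WT, 2 of the 6 members that passed the level minimum were past 2-fold, both lower, namely Fgf17 (-2.17) and Fgfr2 (-1.16), against 2.93% of 12002 genes. In the library labelled shMef2c against shCtrl 0 of 9 were, against 0.231% of 12103 genes, and in shCtrl against WT 0 of 7, against 1.27% of 11921 genes. None of the 5 members past 2-fold in shMef2c at day 5 was so at day 0.

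The levels of the day 0 and day 5 tables were set side by side for each line, centred on the median of all genes. In WT, 5 of 8 members were past 2-fold, against 30% of 11989 genes. Fgf15 (3.02), Fgfr3 (2.58) and Fgf8 (2.36) were higher at day 5, and Fgf4 (-3.19) and Fgf17 (-2.12) lower. In shCtrl 6 of 8 were, against 30.6% of 12182 genes, which were these 5 in the same directions and Fgfr2 (1.42). In KO 5 of 9 were, against 19.9% of 12015 genes, with Fgf4 at -1.86, Fgfr3 at 1.34 and Fgfr2 at 2.32 beside Fgf15 (3.58) and Fgf8 (2.81). In shMef2c, set beside the day 0 library labelled shMef2c, 3 of 8 were, against 18.9% of 12129 genes: Fgf8 (4.29) and Fgf15 (1.54) higher and Fgf4 (-1.95) lower. Fgfr3 there was at 0.55 FPKM at day 5 and 1.36 RPKM at day 0. Fgf17, which was lower at day 5 in both controls, was at 6.13 in shMef2c against 4.00 in the day 0 library labelled so and at 1.16 against 1.54 in KO. The tables were made separately, so a course of a gene and a difference between the tables cannot be told apart.

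Fgf3, Fgf4 and Fgf15 are consecutive protein-coding genes on chromosome 7, in that order in GRCm38.p6, but differed in direction. At day 5 the log2 differences of KO against WT were -0.89, 1.31 and -0.16, and those of shMef2c against shCtrl -0.28, 1.25 and -1.55. Only the middle gene was higher. Beyond Fgf3 lies Ano1, a chloride channel gene, at 4.71 FPKM in WT, 2.20 in KO, 5.00 in shCtrl and 1.46 in shMef2c, and then Fadd, a death receptor adaptor (0.23 and 0.24). Beyond Fgf15 the next named protein-coding genes are LTO1 (-0.30 and -0.48) and Ccnd1, which encodes cyclin D1, at 93.8, 49.5, 72.65 and 42.1 FPKM. The median over the 15 nearest tested genes around Fgf4 was -0.16 in KO and -0.22 in shMef2c, with ranges of -1.54 to 1.86 and -1.55 to 1.23, so a gene nearby had a higher ratio than Fgf4 in KO. That gene was Tnfrsf22 (1.86 and 1.23), and the lowest in KO was the noncoding RNA gene Bc1 (-1.54 and 0.30), which lies between Fgf15 and LTO1. Both were named after their values were seen.

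Fgf8, on chromosome 19, stood apart from its neighbours in shMef2c, where the 20 nearest tested genes ranged from -0.63 to 0.69 beside its 2.12. Its nearest named protein-coding genes were Dpcd (0.07), Fbxw4 (0.44), Npm3 (0.69) and Oga (0.15). Fgf17 lies on chromosome 14, where the middle of the ratios lay below 0 in KO. The median of KO against WT over the tested genes of that chromosome was -0.29 at day 5 (436 genes) and -0.16 at day 0 (426 genes), beside 0.0011 and 0.028 over all genes. Around Fgf17 the 20 nearest tested genes had a median of -0.83 at day 5, with 0 of 20 above 0, and -0.62 at day 0, with 2 of 20 above 0. At day 0 the Fgf17 value of -2.17 was below the lowest of these neighbours, Dmtn (-1.52), and at day 5 it was -0.31. Its nearest named protein-coding genes were, at day 5, Fam160b2 (-0.92), Dmtn (-0.02), Npm2, which was under the level minimum, and Xpo7 (-0.77). In shMef2c against shCtrl the median of the 20 neighbours was -0.04 at day 5, and 3 of them were past 2-fold higher and 0 lower. These were Hr (1.60), Dmtn (1.47), a gene for an actin-binding protein, at 10.1 against 3.01 FPKM, and Dok2 (1.14), beside Fgf17 (2.14). Hr and Dok2 were named here after their values were seen.

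**Figure D4:**
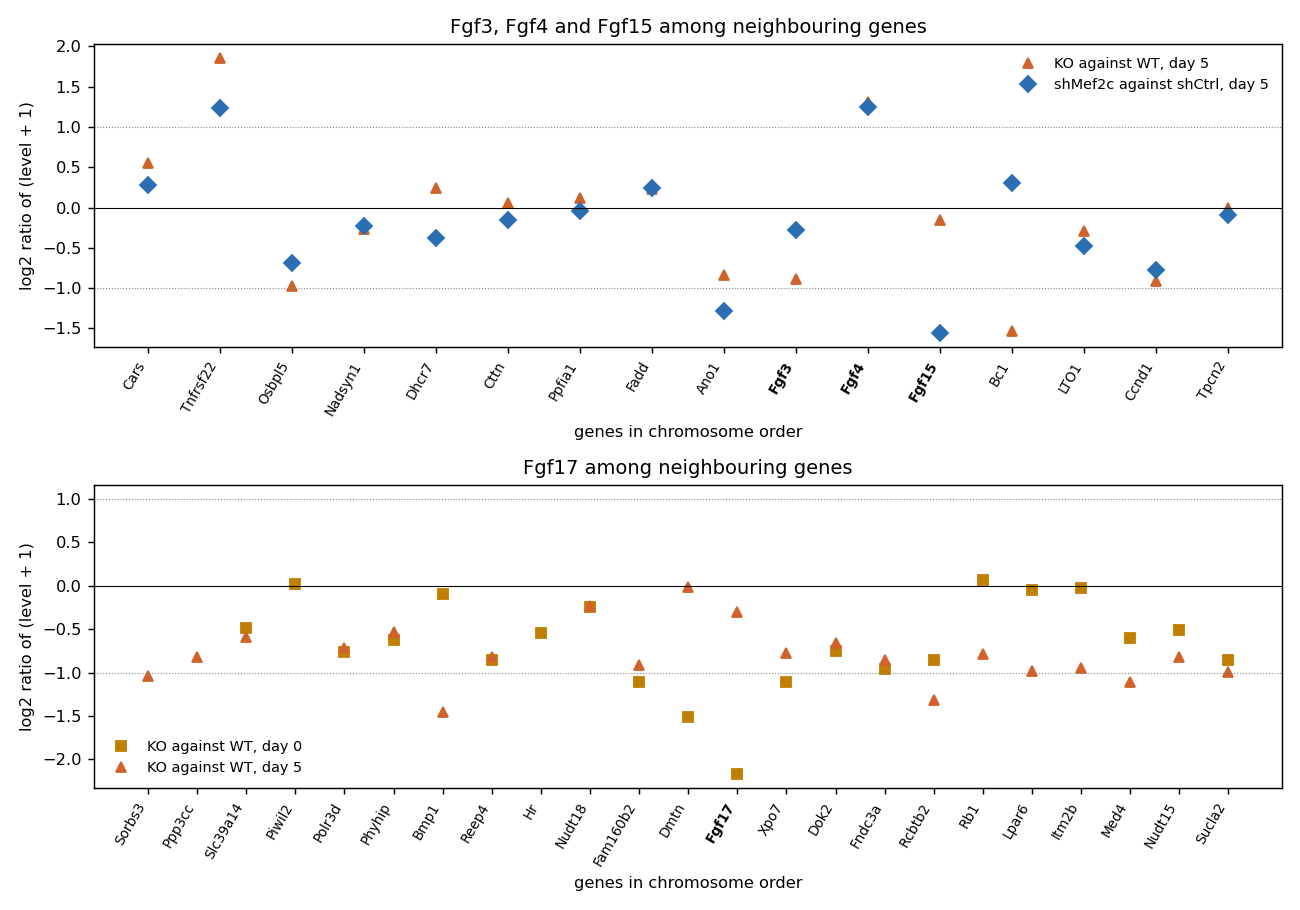
Log2 ratio of (level + 1) for members (bold) and the nearest tested genes in chromosome order, around Fgf3, Fgf4 and Fgf15 at day 5 (top; triangles KO against WT, diamonds shMef2c against shCtrl) and around Fgf17 in KO against WT (bottom; squares day 0, triangles day 5). Dotted lines mark 2-fold. Fgf4 stands above 0 between 2 members below 0, and the day 0 value of Fgf17 (-2.17) is the lowest of its panel.

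For the 5 members whose day 5 values of level + 1 spanned 2-fold or more (not Fgf3 and Fgfr4, whose levels without the added 1 spanned 2.45-fold and 2.92-fold), the genes with the nearest pattern over the 8 libraries were taken by root mean square distance of log2(level + 1), centred within each day, among 11561 genes. This is a description, and the libraries share lines and days. Fgf4 was nearest to Nup62cl (distance 0.06, beside a median of 0.50 over all genes), Llgl2 and Abcc4. Nup62cl was at 11.3, 31.8, 11.4 and 29.8 FPKM in WT, KO, shCtrl and shMef2c at day 5. Fgfr3 was nearest to Pou3f2 (0.14, median 0.84), a neural transcription factor gene, Fam181a and Ednrb, the endothelin receptor B gene. Pou3f2 was at 11.8, 4.44, 13.7 and 0.68 FPKM. Fgf15 was nearest to Zic1 (0.23, median 0.63), a neural transcription factor gene, at 5.81, 4.59, 3.69 and 0.85 FPKM, and then to Scube1 and Map1b. Fgf8 was nearest to Ephx2 (0.26, median 0.70), Ripk3 and Dok2, and Fgf17 to Enox1 (0.37, median 0.85), Dmtn and Krt42. Of these 6 genes, 5 lie on chromosome 14, the exception being Krt42, as do Abcc4 and Ednrb, so 7 of the 15 nearest genes lie there, beside 3.52% of the genes compared. Among them Dmtn was at 37.95 RPKM in WT, 12.6 in KO, 39.3 in shCtrl and 39.9 in the library labelled shMef2c at day 0. Abcc4 and Ednrb had no such low KO level at day 0, at 19.4 RPKM in WT and 16.3 in KO, and at 0.22 and 0.23. The 7 genes thus do not share 1 pattern, and the day 0 value of Fgf8 in KO rests on 6 reads.

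Further genes of the pathway were counted from 5 lists, read beside the share of all genes past 2-fold given above. The lists too were chosen with earlier results of these data known. Of 17 other FGF genes 16 were listed at day 5, and 5 in KO against WT and 6 in shMef2c against shCtrl passed the level minimum. Fgf14, which encodes an FGF-related protein that stays inside the cell, was lower in KO (0.30 against 1.88 FPKM). Fgf5, a ligand of the epiblast, was past 2-fold higher in shMef2c, with 8.72 FPKM in WT, 15.4 in KO, 7.95 in shCtrl and 20.2 in shMef2c. The list's medians were 0.33 and -0.08, beside 0.0011 and -0.05 over all genes.

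Of 20 co-receptors and FGF-binding proteins, 17 passed in KO, with 3 higher and 1 lower (median -0.45), and 16 in shMef2c, with 2 higher and 3 lower (median -0.35). Sdc4 and Sdc3 code for syndecans, cell surface proteins that carry heparan sulfate. Sdc4 was at 6.63 FPKM in WT, 23.8 in KO, 6.94 in shCtrl and 22.3 in shMef2c, and Sdc3 at 12.2, 4.04, 10.1 and 3.13, so the 2 syndecans differed in opposite directions in both lines. Fgfbp1, a secreted FGF carrier, was higher in both (4.00, 9.19, 3.16 and 10.7 FPKM). Fgfbp3 (16.5 to 4.99) and the glypican Gpc2 (25.4 to 8.19) were lower in shMef2c than in shCtrl. Klb, the co-receptor through which FGF15 acts on FGFR4, was at 3.09 FPKM in KO and at 0.07 to 0.11 in the other 3 libraries, in the library that also had the most Fgfr4. It was also the library with the highest summed level of visceral endoderm markers, as given above.

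Of 17 enzymes that make or trim heparan sulfate, 13 passed in KO and 12 in shMef2c, with medians of -0.20 and -0.10. In KO, Hs3st1, a sulfotransferase gene, was higher (5.25 against 1.30 FPKM) and Extl3, a chain initiation gene, lower (4.92 against 11.8). In shMef2c 0 were past 2-fold. All 26 transducers between receptor and MAP kinase passed in both. Of these 1 was past 2-fold in KO, the docking protein gene Gab1 (50.6 against 23.6 FPKM, 1.07), and 0 were in shMef2c, and the medians were 0.09 and -0.08.

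Of 20 targets and feedback inhibitors of the pathway, 19 passed in shMef2c against shCtrl, of which 5 were past 2-fold, each of them higher, and 15 were above 0 (median 0.52, beside -0.05 over all genes). Etv5, an ETS factor gene, was at 30.0 FPKM in WT, 61.1 in KO, 18.1 in shCtrl and 66.2 in shMef2c. Etv4 was at 9.07, 9.96, 5.69 and 18.01, Dusp6, a MAP kinase phosphatase gene, at 29.05, 30.85, 18.3 and 50.4, and Il17rd, a membrane inhibitor gene, at 15.1, 14.4, 8.90 and 22.8. Spry4, an inhibitor named after its values were seen, was at 2.48, 4.29, 1.45 and 5.91 FPKM. For each of these 5 genes the shCtrl level was also below WT, and against WT only Etv5 stayed past 2-fold in shMef2c (1.12). Spry4 (0.99), Etv4 (0.92), Dusp6 (0.77) and Il17rd (0.56) did not, and the list's median against WT was 0.48. Another target, Ccnd1, was past 2-fold lower in shMef2c against WT, at 42.1 against 93.8 FPKM. Against shCtrl it was lower too but not past 2-fold (-0.77). In shCtrl against WT the list's median was -0.26 and 0 of 19 were past 2-fold. In KO against WT 18 passed, with Etv5 higher (1.00) and Cnpy1, a regulator of FGF signalling, lower (6.34 against 14.4 FPKM), and the median was 0.09. Against shCtrl 19 passed in KO, with 3 past 2-fold higher and 0 lower, and the median was 0.20. Etv5 was at 1.70 in that comparison, and Cnpy1 was no longer past 2-fold (-0.26).

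**Figure D5:**
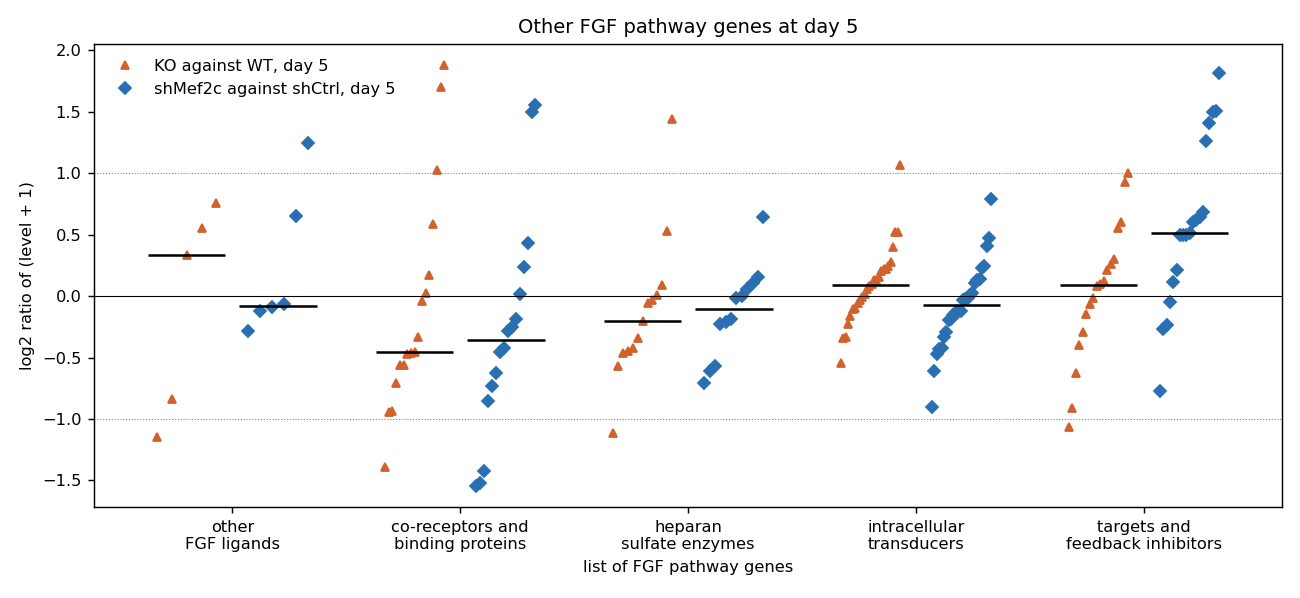
Log2 ratio of (level + 1) at day 5 for the genes of the 5 pathway lists that passed the level minimum (1 point per gene; triangles KO against WT, diamonds shMef2c against shCtrl; black bars are medians, dotted lines 2-fold). Among targets and feedback inhibitors the shMef2c median is 0.52 and the KO median 0.09, while the transducers sit around 0.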

How the data were processed

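The 8 polyadenylated RNA libraries, 1 per group, were grouped by their labels. For day 5 the authors deposited, per the file headers, estimated counts (expected counts) and FPKM values per gene and library. Genes not listed there (under 0.01 FPKM) were taken as 0. The day 0 file, deposited as 1 table for the 4 lines, has RPKM and estimated counts. The deposited day 5 comparison tables, made by a Poisson method per the labels, hold log2 ratios and adjusted p-values (a false discovery rate). They were used only as an alternative. Tools listed in the submitters' processing notes, with no role or version, are RSEM, Bowtie, Bowtie2, HISAT and HISAT2, and the build is mm9. Strand use in counting was not given, so reads of overlapping genes cannot be told apart.

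Members were matched by symbol in both kinds of file. Ratios are log2((a + 1)/(b + 1)) of the deposited levels for genes with a pair mean of 1 or more, and a gene past 2-fold was counted as higher or lower. Because of the added 1, such a ratio understates the difference of scarce genes. Ratios of a library's day 5 to its day 0 level had the median over genes found in both tables subtracted. Those tables were made separately, so these values are set side by side. Each group being 1 library, nothing was tested across samples. The ratio of read shares (each gene's estimated reads over the library total) has an exact Clopper-Pearson 95% interval, and read numbers have exact Poisson intervals. Estimated counts were rounded for these intervals, which cover counting error only. The scripts were tested on simulated data.

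The members and gene lists (5 pathway lists, 10 lists of cell type markers) were chosen with earlier results of these data known. Named besides the members are the members of each pathway list past 2-fold in KO against WT and in shMef2c against shCtrl at day 5. Where there were more than 4, the 2 highest and 2 lowest ratios were taken. Also named are the 2 nearest named protein-coding genes on each side of Fgf3, Fgf4, Fgf15, Fgf8 and Fgf17, and the 3 genes most like each member whose day 5 values of level + 1 span 2-fold. Chromosomes, gene order and sequences come from RefSeq tables of GRCm38.p6, which differs from mm9. The software was Python 3.11.15, pandas 2.3.3, scipy 1.17.1, edgeR 4.0.16 (TMM factors only) and DESeq2 1.42.0 (size factors only). As alternatives, the values were recomputed with a pseudocount of 0.1, without a filter, with a pair mean of 5 or more, a common total (TPM), median centring, TMM or DESeq2 scaling of counts, folds of 1.5 and 4, the other control library and the authors' tables.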

Additional observations from a re-analysis of the deposited data

How the results depend on the processing

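With 1 library per group no replicate could be left out, and no paired analysis was possible because each group holds a single library. No member past 2-fold changed direction under any alternative run. With the limit at 4-fold, the members past it (with the percent of all genes past it) were 0 in KO against WT at day 5 (0.904), 3 in shMef2c against shCtrl at day 5 (1.55), 1 in KO against WT at day 0 (0.325), 3 between days in KO (5.13) and 1 between days in shMef2c (4.39). At 1.5-fold they were 2 in shCtrl against WT at day 5 (5.26), 2 in the library labelled shMef2c against shCtrl (2.63) and 1 in shCtrl against WT (6.85) at day 0, and 5 between days in shMef2c (39.9). A pseudocount of 0.1 gave 1 in shCtrl against WT at day 5 (2.57), 1 in the library labelled shMef2c against shCtrl at day 0 (0.768) and 5 between days in shMef2c (24.3). A pair mean of 5 or more, which tests fewer genes, left 1 in KO against WT at day 0 (2.42) and 2 between days in KO (16.8). Against WT, 1 member (Fgf17, -1.19) passed in the library labelled shMef2c at day 0 (2.60). The authors' deposited table of KO against WT holds 4. The other counts stayed within 1.5 times. Fgfr3 in shMef2c against shCtrl at day 5 was -2.80, and -3.93 with the smaller pseudocount, -3.61 with TMM factors and -3.63 with DESeq2 size factors, while Fgf17 there went from 2.14 to 3.11 with the smaller pseudocount. Fgfr2 in KO at day 0 went from -1.16 to -1.72 with TMM factors. Both of these scalings add the 1 to scaled counts in place of FPKM or RPKM, where it weighs less for these genes. The TMM factors themselves were near 1. They were 0.970 in shMef2c and 1.03 in shCtrl at day 5, and 1.01 in KO and 0.973 in WT at day 0. With the other control library, chosen as an alternative for the pathway lists after seeing the data, the targets past 2-fold in shMef2c went from 5 to 2, 1 of them shared. Depth limits Fgf8 at day 0 (6 reads in KO) and Fgf17 in shCtrl at day 5 (26 reads).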

Other observations

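At day 0, before differentiation, single libraries stood apart for a few further genes of the pathway lists, named after their values were seen. Spry4 was at 2.39 RPKM in WT and at 6.20 in KO, 5.98 in shCtrl and 8.37 in the library labelled shMef2c. Sdc4 was at 10.4 RPKM in WT and at 30.7, 23.5 and 34.6 in the others. Etv4 was at 44.5 RPKM in KO and at 13.4 to 19.2 in the other 3. A difference of KO from WT at day 0 in Spry4 (1.09) or Sdc4 (1.47) was therefore also seen in shCtrl against WT (1.04 and 1.10).

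Egr1 and Fos, immediate early genes that MAP kinase signalling switches on, were among the targets with the widest gap between the tables. Egr1 was at 323 to 420 RPKM in the 4 day 0 libraries and at 2.17 to 3.97 FPKM at day 5. Fos was at 48.6 to 116 RPKM and at 0.84 to 1.77 FPKM. The transducer gene Ksr1 was at 10.5 RPKM in WT and 8.69 in KO, and at 5.08 in shCtrl and 5.26 in the library labelled shMef2c, lower in the hairpin lines than in the other 2.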
